A study of Mus musculus with 12 samples.

Results

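The 10 genes described here serve water and sodium transport along the renal tubule, most of them in the collecting duct: the water channels Aqp1, Aqp2, Aqp3 and Aqp4, the epithelial sodium channel (ENaC) subunits Scnn1a, Scnn1b and Scnn1g, the ENaC regulators Sgk1 and Nedd4l, and Hsd11b2, the enzyme that inactivates glucocorticoids in aldosterone target cells. They were picked by symbol, through the Ensembl identifiers, from the 47642 genes of the table, and all 10 were listed there. RNA sequencing covered 12 libraries of mIMCD3, an epithelial line of the mouse inner medullary collecting duct that was derived from mice carrying the early region of SV40. Of these, 4 were wild-type (Wt), 4 came from 1 Pkd1-/- clone, in which CRISPR/Cas9 removed nearly the whole of Pkd1, and 4 from 1 Pkd2-/- clone, in which TALENs cut a deletion within Pkd2. Pkd1 and Pkd2 encode polycystin-1 and polycystin-2, whose loss causes autosomal dominant polycystic kidney disease. All groups were grown in serum-containing medium with no hormone named, and RNA was taken from separate dishes 4 days after confluency. Since each mutant was 1 clone, the loss of the gene and the differences between clones cannot be told apart.

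In the collecting duct, vasopressin acts through its V2 receptor, cyclic AMP and protein kinase A to move Aqp2 to the apical membrane of principal cells, while Aqp3 and Aqp4 let the water leave on the basolateral side. Aldosterone binds the mineralocorticoid receptor and raises ENaC activity. Part of that action runs through the kinase Sgk1, which phosphorylates the ubiquitin ligase Nedd4-2, the product of Nedd4l, and keeps it away from the channel. The sodium pump then extrudes the sodium across the basolateral membrane. Aqp1 is the water channel of the proximal tubule and the thin descending limb rather than of principal cells.

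The libraries held between 25966273 and 28027792 normalized counts, that is reads per gene divided by a size factor for the depth of the library, and between 23183386 and 30329302 reads as estimated from the steps between the values. Pkd1 had 782 ± 112 normalized counts (SD, n = 4) in Wt and 41.8 ± 8.81 in Pkd1-/- cells, and its lowest Wt library, at 682, stood far above the highest Pkd1-/- library, at 49. Pkd2 had 3971 ± 451 in Wt and 3986 ± 124 in Pkd2-/- cells, so the deletion inside this gene was not visible in its total count. That total does not check the label. At the level of exons the study reported no counts for the deleted exons, and it reported loss of the protein by Western blot. The identity of the line was checked with markers. Of 10 markers of collecting duct epithelium 9 reached a mean of 10 normalized counts, among them Krt8, Epcam, Cdh1 and Pax2. Of 12 principal cell markers 5 did, namely Scnn1g, Hsd11b2, Gata3, Tfcp2l1 and Cdh16, and Aqp2 and Aqp4 were listed at 0. None of 10 intercalated cell markers, 5 markers of the thick ascending limb and distal tubule or 5 endothelial markers reached it, and the 10 intercalated cell markers summed to between 3 and 16 in any library. Dcn was the only one of 5 fibroblast markers that did, with a sum over the list of 15 to 55, and Cd68 the only one of 5 leukocyte markers, with a sum of 47 to 73. Both of these lists spanned overlapping ranges in all 3 genotypes. The lists that mark the identity of the line did not overlap between Wt and Pkd1-/- cells. The principal cell list holds Aqp2, Aqp3, Aqp4, Scnn1b, Scnn1g and Hsd11b2, which are among the 10 genes described here. It summed to 4596 to 4946 in Wt, 3046 to 3432 in Pkd1-/- and 4615 to 5243 in Pkd2-/- libraries. The collecting duct list summed to 79468 to 89185, 76519 to 78757 and 82743 to 87261. Both sums were lower in every Pkd1-/- library than in any Wt library. The principal cell sum includes the fall of Scnn1g itself, from a mean of 928 in Wt to 303 in Pkd1-/- cells. It is therefore no separate check on that gene. The mean of Tfcp2l1 was 1500 in Wt, 1162 in Pkd1-/- and 1850 in Pkd2-/- cells, that of Cdh16 2016, 1592 and 2298, and that of Krt19 4472, 1329 and 1409. Not all members of the 2 lists were lower in Pkd1-/- than in Wt cells. In Wt, Pkd1-/- and Pkd2-/- cells Cdh1 had means of 13696, 13965 and 15572.5, and Hsd11b2 had 79.5, 116.5 and 57.0. The part of these differences in the values that follow was not tested.

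The 10 genes fell into 3 classes by level. Aqp2, the vasopressin-regulated channel (chr15:99579055-99584547, GRCm38), and Aqp4 (chromosome 18) were listed at 0 in all 12 libraries. At these depths a count of 0 allows up to 3 reads, or 2.66 to 3.38 normalized counts, per library. Aqp3 and Scnn1b were detected with single-digit values and means under 10. The remaining 6 genes, Aqp1, Scnn1a, Scnn1g, Sgk1, Nedd4l and Hsd11b2, were expressed in every library. Thus mIMCD3 cells held RNA for the alpha and gamma subunits of ENaC, very little for the beta subunit, and no detected RNA for the vasopressin-regulated water channel.

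To compare levels between genes, normalized counts were divided by the length in kb of all annotated exons of a gene, merged over its transcripts. Lengths of the transcripts present in these cells were not used, and the order was not tested with other lengths. In Wt cells Scnn1g stood first with 310 ± 17.1 per kb, above 73.0% of the 18477 genes compared, whose median was 78.9 per kb. It was followed by Sgk1 with 197.5 ± 40.7, Nedd4l with 139 ± 3.86, Aqp1 with 87.7 ± 6.98, Hsd11b2 with 43.2 ± 2.28 and Scnn1a with 18.3 ± 1.27 per kb. No neighbours in this order overlapped between libraries. Scnn1b, at 0.475 per kb, and Aqp3, at 0.820 per kb, lay far below.

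The order was a different one in each mutant. In Pkd1-/- cells Aqp1 moved to the first place with 219.5 per kb, and Sgk1 (126 per kb), Scnn1g (101 per kb) and Nedd4l (84.8 per kb) followed. Libraries of Sgk1 and Scnn1g overlapped there, as did those of Scnn1g and Nedd4l. In Pkd2-/- cells Sgk1 (184 per kb) and Nedd4l (145 per kb) led with overlapping libraries, before Aqp1 with 102 and Scnn1g with 85.2 per kb. Hsd11b2, at 31.0 per kb, and Scnn1a, at 29.0 per kb, could not be ranked against each other in these cells.

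**Figure D1:**
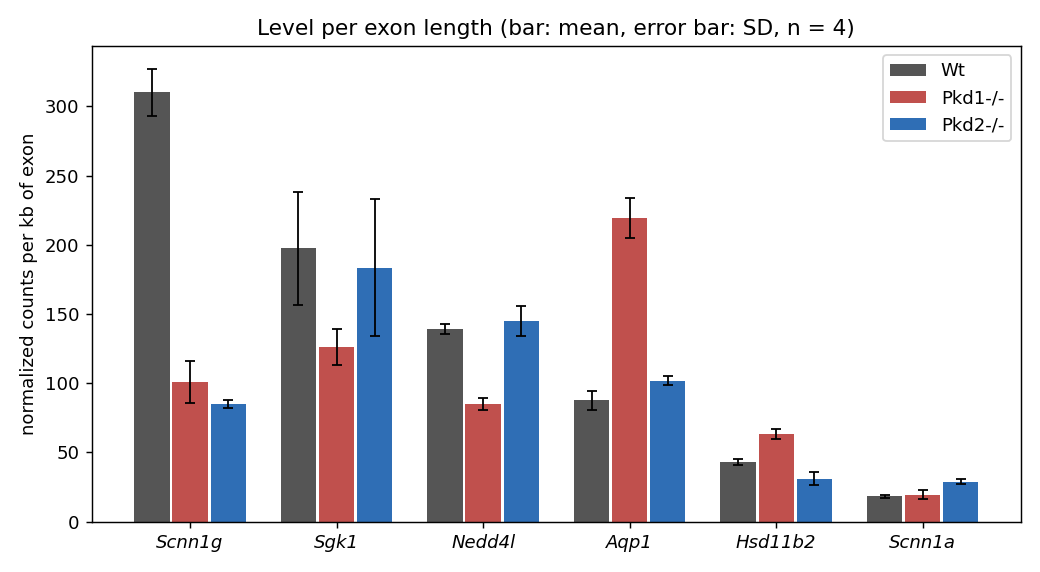
Level of the 6 expressed genes in normalized counts per kb of exon (vertical axis) for Wt, Pkd1-/- and Pkd2-/- libraries (bars: mean, error bars: SD, n = 4). Scnn1g leads in Wt with 310 per kb and falls to 101 and 85.2 per kb in the mutants, while Aqp1 leads in Pkd1-/- cells with 219.5 per kb.

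Each mutant clone was compared with Wt to ask how the RNA levels of these transport genes differed. Changes are given as log2 fold change of the normalized count plus 1, with its standard error (SE). A gene was called differentially expressed at an adjusted p of less than 0.05 (limma, Benjamini-Hochberg over 18552 genes) and a log2 fold change of 1 or more, up or down, and rose or fell denotes an adjusted p of less than 0.05. Among the 8 genes that could be tested, 2 were differentially expressed in Pkd1-/- cells, where Aqp1 rose and Scnn1g fell. Of all genes tested 6.24% were (2.96% higher, 3.28% lower). In Pkd2-/- cells it was 1 of the 8, Scnn1g, against 9.62% of all genes (3.24% higher, 6.38% lower). By the adjusted p alone 5 of the 8 passed in Pkd1-/- cells, with 2 higher and 3 lower, while 27.1% of all genes passed (13.6% higher, 13.5% lower). In Pkd2-/- cells 4 of the 8 passed, with 2 higher and 2 lower, while 42.3% of all genes did (20% higher, 22.3% lower). Over the 8, the log2 fold changes had a median of 0.31 in Pkd1-/- and -0.03 in Pkd2-/- cells, beside 0.01 and -0.01 over all genes tested. The value of 0.31 includes Aqp3 at 1.15 and Scnn1b at 0.65, which had means under 10 and did not pass the adjusted p. The other 6 values in Pkd1-/- cells were 1.32, 0.545, 0.08, -0.63, -0.72 and -1.62. Directly compared, Pkd2-/- and Pkd1-/- cells differed in 2 of the 8, Aqp1 and Hsd11b2, which were both lower in Pkd2-/- cells. Of all genes 11.8% were called there (4.53% higher, 7.23% lower). By adjusted p alone 6 of the 8 differed, with 3 higher and 3 lower, while 46.3% of all genes did (21.9% higher, 24.3% lower). Both comparisons with Wt share the Wt libraries and are therefore given side by side. In such bulk samples, fewer cells that express a gene and less RNA per cell cannot be told apart.

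**Figure D2:**
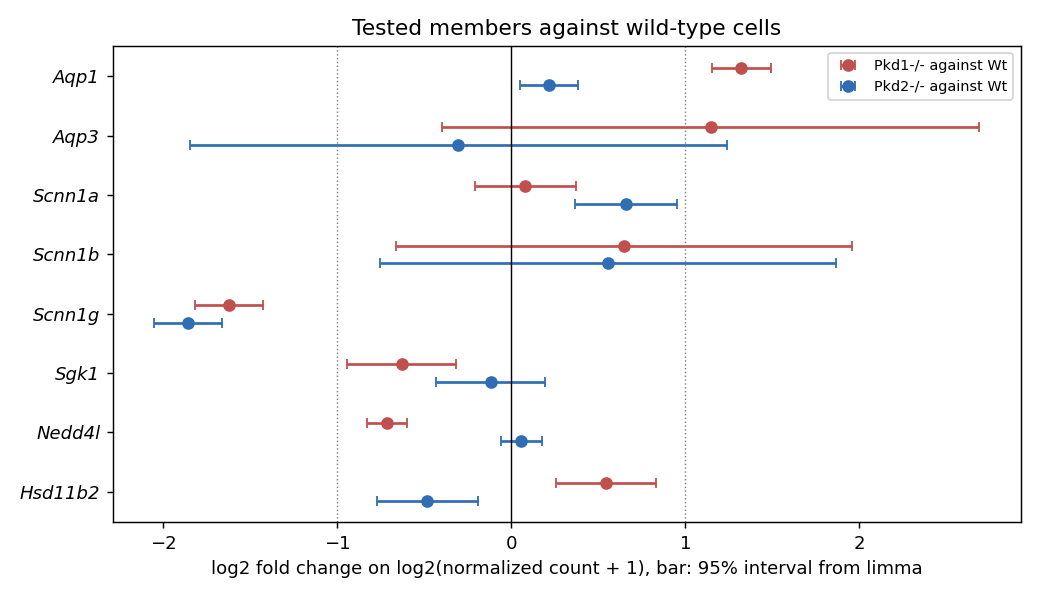
Log2 fold change of log2(normalized count + 1) against Wt (horizontal axis) for the 8 tested genes in Pkd1-/- (red) and Pkd2-/- cells (blue), with 95% intervals from limma and dotted lines at 1 and -1. Scnn1g lies beyond -1 in each mutant, at -1.62 and -1.86, and Aqp1 beyond 1 in Pkd1-/- cells only, at 1.32 against 0.22.

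Of the ENaC subunits, the gamma subunit Scnn1g showed the largest change. Its gene spans chr7:121734479-121768475 (GRCm38, plus strand). The Wt libraries held 951, 988, 876 and 896 normalized counts. Pkd1-/- libraries held 282, 249, 333 and 347, and Pkd2-/- libraries 243, 257, 254 and 265. Every mutant library lay below every Wt library, and the mutants overlapped each other. The means were 928 ± 51.2, 303 ± 45.4 and 255 ± 9.11 (SD, n = 4), so 32.6% of the Wt level was measured in Pkd1-/- and 27.5% in Pkd2-/- cells. Scnn1g fell by 1.62 on the log2 scale in Pkd1-/- cells (SE 0.09, adjusted p = 1.37e-10, limma) and fell by 1.86 in Pkd2-/- cells (SE 0.09, adjusted p = 7.94e-12). The mutants differed by -0.24 (adjusted p = 0.0431). That call was lost without Wt replicate 1, 3 or 4, Pkd1-/- replicate 3 or 4, or Pkd2-/- replicate 1, 2 or 3, with adjusted p of 0.0509 to 0.16.

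The alpha subunit Scnn1a (chr6:125320659-125344943, plus strand), which is essential to the renal channel, moved in only 1 of the mutants. Wt libraries held 76, 78, 68 and 80 normalized counts, and Pkd1-/- libraries 63, 89, 79 and 91. These groups overlapped, and the log2 difference of 0.08 had a 95% interval from -0.21 to 0.37 (adjusted p = 0.74). All Pkd2-/- libraries, at 122, 131, 114 and 112, were above every other library. The rise was 0.66 on the log2 scale (SE 0.14, adjusted p = 0.000728), from a mean of 75.5 ± 5.26 to 119.8 ± 8.66, and Pkd2-/- also exceeded Pkd1-/- cells by 0.58 (adjusted p = 0.00193). The alpha and gamma subunits therefore moved in opposite directions in Pkd2-/- cells.

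The beta subunit Scnn1b (chr7:121865038-121918514, plus strand) lies 96.6 kb downstream of Scnn1g on the same strand. Only 1 annotated gene, Gm44740, lies between them, and it reached no more than 1 normalized count in any library. Scnn1b had 1, 3, 1 and 0 normalized counts in Wt, 1, 2, 1 and 7 in Pkd1-/- and 2, 4, 0 and 4 in Pkd2-/- cells. Most of these values are at or near the limit that a count of 0 allows, and no change was detectable at this depth (adjusted p = 0.506 and 0.52 against Wt). Thus neighbouring subunit genes of the same channel differed in Wt cells from 310 to 0.475 normalized counts per kb. Around Scnn1g, 17 other genes within 1 Mb had a mean of at least 10. None was differentially expressed in Pkd1-/- or Pkd2-/- cells, and the median of their log2 fold changes was -0.01 in the former and -0.05 in the latter mutant.

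The promoters of these neighbours are shown because one gene was high and the other barely detected. RefSeq sequences (GRCm38.p6) were given for 6 of the 10 genes, and the windows span the 250 bases before the annotated start, on the plus strand and 5′ to 3′. Capitals mark matches on either strand to GGGCGG, the letters of the GC box bound by Sp1, and to GATA, the core letters bound by GATA factors.
Scnn1g, chr7:121734229-121734478: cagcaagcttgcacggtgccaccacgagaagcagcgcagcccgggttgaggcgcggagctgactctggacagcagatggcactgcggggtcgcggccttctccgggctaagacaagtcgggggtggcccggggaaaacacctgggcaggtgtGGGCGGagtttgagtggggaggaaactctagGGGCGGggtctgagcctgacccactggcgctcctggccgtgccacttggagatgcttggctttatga
Scnn1b, chr7:121864788-121865037: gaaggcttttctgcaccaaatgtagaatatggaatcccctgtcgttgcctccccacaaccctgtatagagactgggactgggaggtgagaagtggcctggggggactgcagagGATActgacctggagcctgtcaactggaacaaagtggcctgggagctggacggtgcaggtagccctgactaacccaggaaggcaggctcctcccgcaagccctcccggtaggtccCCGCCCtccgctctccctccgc
The Scnn1g window held GGGCGG at 98 and at 67 bases before the start, and its GC content was 65.2% with 16 CG dinucleotides. In the Scnn1b window, with 60.8% GC and 7 CG dinucleotides, GGGCGG matched once on the opposite strand 22 bases before the start, and GATA once at 137 bases. Over 32851 promoter windows of this length the median GC content was 52.4%, 32.7% held GGGCGG and 53.6% held GATA. Neither window held TGTTCT, one side of the palindromic steroid receptor element, the cyclic AMP element TGACGTCA or TATAAA, while 16.1%, 1.5% and 12.4% of all windows held them. These matches describe letters and not binding sites.

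Aqp1 was the only one of the 4 water channels that was expressed in every library. It had 204, 245, 240 and 233 normalized counts in Wt, 619, 597, 551 and 540 in Pkd1-/-, and 261, 259, 273 and 277 in Pkd2-/- libraries. The 3 genotypes did not overlap, and Pkd1-/- cells held more than any other group. Aqp1 (chr6:55336432-55348555, plus strand) rose from 230.5 ± 18.3 to 577 ± 37.5 (SD, n = 4) in Pkd1-/- cells, by 1.32 on the log2 scale (SE 0.08, adjusted p = 3.45e-10, limma). In Pkd2-/- cells, at 267.5 ± 8.85, the difference was 0.22 (SE 0.08, adjusted p = 0.0363). That call was lost without Wt replicate 1 (0.16, adjusted p = 0.122), Wt replicate 4 (0.0524), Pkd2-/- replicate 3 (0.0714) or Pkd2-/- replicate 4 (0.08), and at 0.0778 after upper quartile scaling. The levels of the mutants differed from each other by -1.10 for Pkd2-/- against Pkd1-/- (SE 0.08, adjusted p = 1.4e-09).

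Because Aqp1 also marks the proximal tubule and thin limb, the other markers of these segments are given beside it. The list holds 7 markers, Aqp1 among them, and 3 of the 7, Aqp1, Lrp2 and Bst1, had a mean of at least 10. With Aqp1 counted, it summed to 1018 to 1169 in Wt, 1016 to 1054 in Pkd1-/- and 1394 to 1868 in Pkd2-/- libraries. The overlapping sums of Wt and Pkd1-/- libraries thus hold both the higher Aqp1 and the lower Lrp2 of Pkd1-/- cells. Lrp2, the endocytic receptor megalin, had means of 508 in Wt, 46.3 in Pkd1-/- and 934.5 in Pkd2-/- cells. Bst1 had means of 363 in Wt, 407 in Pkd1-/- and 363 in Pkd2-/- cells, and the phosphate transporter Slc34a1 was listed at 0 throughout. The part of such cells in the Aqp1 values was not tested. Within 1 Mb of Aqp1, the log2 fold changes of 9 other genes had a median of -0.13 in Pkd1-/- cells, with none differentially expressed, and of 0.33 in Pkd2-/- cells, with 6 of 9 positive and 1 differentially expressed. The 250 bases before its RefSeq start, which lies upstream of the start of the gene model given above, are shown since Aqp1 was the member that rose most, with GGGCGG in capitals.
Aqp1, chr6:55336049-55336298: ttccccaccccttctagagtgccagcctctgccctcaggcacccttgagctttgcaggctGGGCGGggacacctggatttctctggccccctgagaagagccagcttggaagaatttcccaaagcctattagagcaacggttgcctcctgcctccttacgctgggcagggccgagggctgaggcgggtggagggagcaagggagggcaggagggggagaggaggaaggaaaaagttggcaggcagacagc
This window had 62.0% GC, 5 CG dinucleotides and GGGCGG once, 190 bases before the start, and none of the other letters searched.

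Besides Aqp2 and Aqp4, Aqp3 was near the detection limit. Aqp3 (chr4:41092722-41098183, minus strand) had 0, 0, 6 and 0 normalized counts in Wt, 3, 6, 0 and 5 in Pkd1-/-, and 0, 0, 2 and 0 in Pkd2-/- libraries. No comparison passed the test (adjusted p = 0.285 and 0.781 against Wt, 0.118 between the mutants). Without Pkd1-/- replicate 3, the only 0 of that group, the mutants differed by -2.07 (adjusted p = 0.0253). Of 8 further aquaporins 3 were listed at 0 in all libraries, and 4 had the mean of 1 needed for a test. Aqp11, an intracellular channel, was the most abundant of them, with means of 33.3, 31.8 and 21.5 in Wt, Pkd1-/- and Pkd2-/- cells and no call. Only Aqp5, a channel of secretory glands, passed the adjusted p in any comparison. Aqp5 and Aqp11 were chosen for mention after their values were seen. The means of Aqp5 were 1.00 in Wt, 7.75 in Pkd1-/- and 4.00 in Pkd2-/- cells (adjusted p = 0.0149 for Pkd1-/- against Wt).

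**Figure D3:**
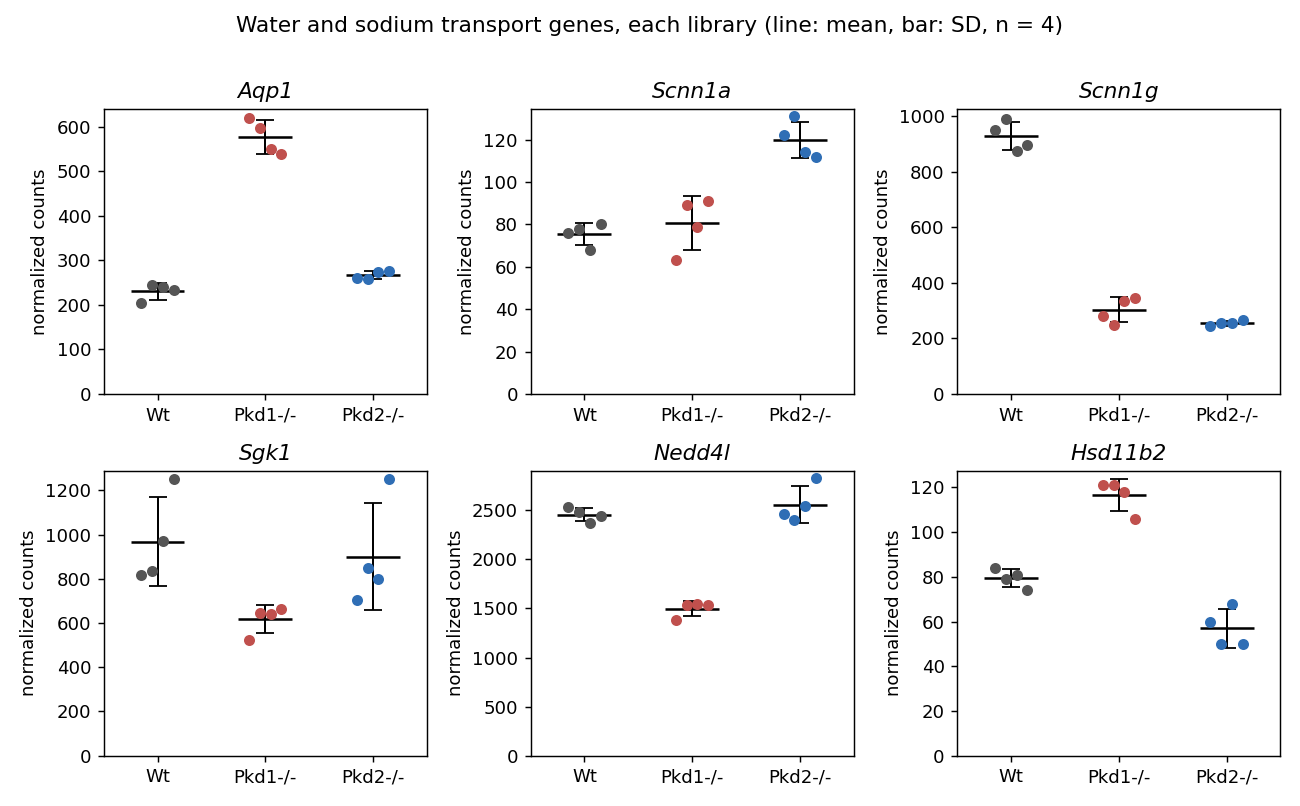
Normalized counts (vertical axes, starting at 0) of the 6 expressed genes in each of the 12 libraries, with points for replicates 1 to 4 from left to right, a line for the mean and a bar for the SD (n = 4). Scnn1g is lower in each mutant than in Wt, Aqp1 is highest and Sgk1 and Nedd4l are lowest in Pkd1-/- cells, and Hsd11b2 is above Wt in Pkd1-/- and below it in Pkd2-/- cells.

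The regulators of ENaC turnover, Sgk1 and Nedd4l, fell in Pkd1-/- cells. Nedd4l (chr18:64887705-65217828, plus strand) had 2531, 2482, 2369 and 2447 normalized counts in Wt, and 1381, 1531, 1541 and 1537 in Pkd1-/- libraries. All Pkd1-/- libraries were below all others. The mean went from 2457 ± 68.2 to 1498 ± 77.8, and Nedd4l fell by 0.72 on the log2 scale (SE 0.06, adjusted p = 1.12e-08, limma). Pkd2-/- libraries, with 2458, 2405, 2544 and 2831, overlapped Wt, and their difference of 0.06 had a 95% interval from -0.06 to 0.17 (adjusted p = 0.461). Between the mutants the difference was 0.77 (adjusted p = 1.31e-09). An annotated antisense transcript, A330084C13Rik, covers 1.57% of the exon bases of Nedd4l.

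Sgk1 (chr10:21882184-21999903, plus strand) had 817, 835, 973 and 1249 normalized counts in Wt, 524, 647, 639 and 663 in Pkd1-/-, and 703, 848, 797 and 1252 in Pkd2-/- libraries. Replicate 4 was the highest library in each genotype, while all Pkd1-/- libraries stayed below all Wt and Pkd2-/- libraries. Sgk1 fell by 0.63 on the log2 scale in Pkd1-/- cells (SE 0.15, adjusted p = 0.00314), from 968.5 ± 199.6 to 618 ± 63.6. No change was detectable in Pkd2-/- cells, with a difference of -0.12 and a 95% interval from -0.43 to 0.19 (adjusted p = 0.565), and Pkd2-/- exceeded Pkd1-/- cells by 0.51 (adjusted p = 0.00789). Of 11 genes within 1 Mb of Sgk1, 10 had a positive log2 fold change in Pkd1-/- cells, with a median of 0.37 and 1 differentially expressed. In Pkd2-/- cells 4 of 11 did, with a median of -0.09 and 2 differentially expressed. The medians over all genes tested were 0.01 and -0.01. Around Scnn1a, Nedd4l and Hsd11b2 the medians were -0.002, -0.08 and 0.02 in Pkd1-/- cells. In Pkd2-/- cells they were -0.10, 0.12 and -0.19.

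Hsd11b2 (chr8:105518755-105523988, plus strand) was the only one of the genes that passed the adjusted p in opposite directions in the mutants. Wt libraries held 84, 79, 81 and 74 normalized counts. Pkd1-/- libraries, with 121, 121, 118 and 106, were above and Pkd2-/- libraries, with 60, 50, 68 and 50, were below all of them. The mean of 79.5 ± 4.20 in Wt rose to 116.5 ± 7.14 in Pkd1-/- cells (log2 0.55, SE 0.14, adjusted p = 0.00546) and fell to 57.0 ± 8.72 in Pkd2-/- cells (log2 -0.48, SE 0.14, adjusted p = 0.00777). Between the mutants Hsd11b2 differed by -1.03 (SE 0.14, adjusted p = 4.67e-06). That value came to -0.97 when Pkd2-/- replicate 2 or replicate 4 was left out, with the fold threshold then missed.

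Other genes of the pathway were drawn from 7 lists with 104 genes, of which 13 were listed at 0, 14 more never exceeded 3 normalized counts, and 77 were tested. Of the 77, 7 were differentially expressed in Pkd1-/- (3 higher, 4 lower) and 10 in Pkd2-/- cells (3 higher, 7 lower), beside 6.24% and 9.62% of all genes. Among the 65 of them with a mean of at least 10, the calls came to 3 in each mutant, or 4.62%, beside 5.39% and 8.77% of all genes at that level. By adjusted p alone 30 of 77 passed in Pkd1-/- (16 higher, 14 lower) and 45 in Pkd2-/- cells (26 higher, 19 lower), beside 27.1% and 42.3% of all genes. Their median log2 fold change was 0.01 and 0.05.

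Nr3c2, the mineralocorticoid receptor, carries the aldosterone signal that Hsd11b2 protects. It had 19, 14, 4 and 26 normalized counts in Wt, 1, 4, 1 and 7 in Pkd1-/-, and 241, 214, 190 and 265 in Pkd2-/- libraries. Every Pkd2-/- library was far above all others, and Wt and Pkd1-/- overlapped. Nr3c2 rose by 4.00 on the log2 scale in Pkd2-/- cells (adjusted p = 1.29e-06, limma), from 15.8 ± 9.25 to 227.5 ± 32.5, and fell by 2.00 in Pkd1-/- cells (adjusted p = 0.00335). The mutants differed by 5.99 (adjusted p = 4.42e-09). Most Pkd1-/- values were at or near the limit that a count of 0 allows, and the size depended on the pseudocount and the libraries: it was -2.50 to -1.26 in Pkd1-/- cells, 3.50 to 4.31 in Pkd2-/- cells and 4.87 to 6.38 between the mutants. The glucocorticoid receptor Nr3c1 was abundant in all groups, with 2274, 1805 and 2768 normalized counts in Wt, Pkd1-/- and Pkd2-/- cells. It fell by 0.33 in Pkd1-/- (adjusted p = 0.000659) and rose by 0.28 in Pkd2-/- cells (adjusted p = 0.00145). Of the corticosteroid list with its chaperones and target genes, 13 of 14 were tested. In Pkd1-/- cells 3 rose and 4 fell (all genes 27.1%), and in Pkd2-/- cells 6 rose and 4 fell (all genes 42.3%).

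Genes of vasopressin signalling were compared by RNA level only, and the receptor was barely detected. Avpr2, the V2 receptor, had at most 1 normalized count in any library. Of 25 genes of the vasopressin and Aqp2 trafficking list 23 were tested, and 4 rose and 5 fell in Pkd1-/- cells (all genes 27.1%), while 8 rose and 4 fell in Pkd2-/- cells (all genes 42.3%). Gata3, a transcription factor of principal cells, fell from 227 ± 34.3 to 48.5 ± 5.75 in Pkd1-/- cells, where it fell by 2.20 on the log2 scale (adjusted p = 6.34e-10), and rose to 354 ± 58.5 in Pkd2-/- cells, by 0.64 (adjusted p = 0.000968). The adenylyl cyclase Adcy3 had means of 55.8 in Wt, 38.5 in Pkd1-/- and 27.5 in Pkd2-/- cells. It fell by 1.07 in Pkd2-/- cells (adjusted p = 0.00554), and by 0.85 to 0.98 without Wt replicate 4 or Pkd2-/- replicate 3 or 4, which is short of the fold threshold.

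**Figure D4:**
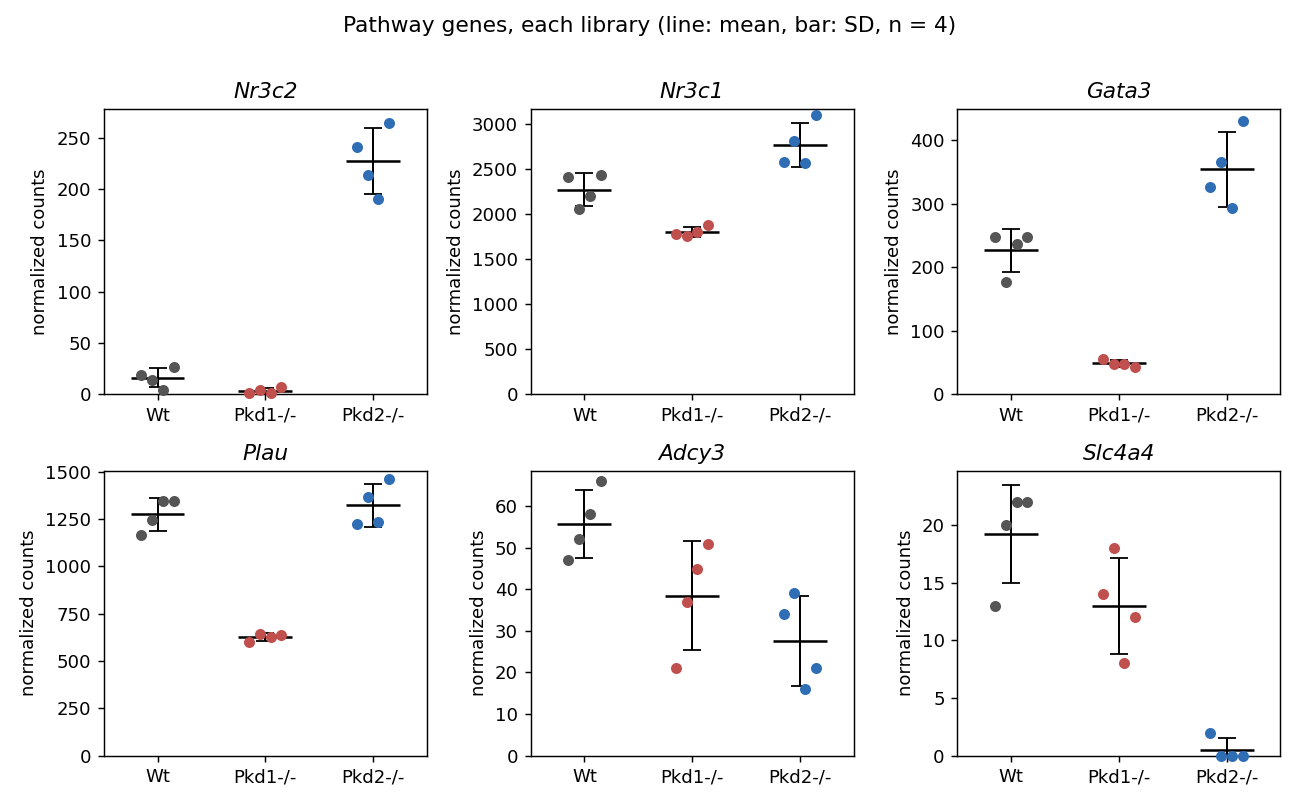
Normalized counts (vertical axes, starting at 0) of Nr3c2, Nr3c1, Gata3, Plau, Adcy3 and Slc4a4 in each of the 12 libraries, with a line for the mean and a bar for the SD (n = 4). Nr3c2 lies between 190 and 265 in Pkd2-/- cells and at 26 or less elsewhere, while Slc4a4 is at 2 or less in Pkd2-/- cells.

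Of 23 ENaC kinases and ubiquitin pathway genes 22 were tested. In Pkd1-/- cells 5 rose and 2 fell, close to the 27.1% of all genes, and in Pkd2-/- cells 6 rose and 10 fell, beside 42.3%. Of 11 ENaC proteases and their inhibitors 7 were tested, with 4 lower and none higher in Pkd1-/- cells, and 3 higher and none lower in Pkd2-/- cells. The same shares of all genes apply, and 3 of 7 is close to that in Pkd2-/- cells. Each count includes the protease inhibitor Spint1. Plau, the urokinase that can activate plasminogen and thereby cleave the gamma subunit, fell by 1.02 in Pkd1-/- cells, from 1275 to 626 normalized counts (adjusted p = 8.23e-10), and fell by 1.00 without Wt replicate 3 or 4, just under the fold threshold. In Pkd2-/- cells Plau held 1322 normalized counts (adjusted p = 0.589). The channel-activating protease Prss8 had means of 1274 in Wt, 1099 in Pkd1-/- and 1454 in Pkd2-/- cells. It fell by 0.21 in Pkd1-/- cells (adjusted p = 0.0212) and rose by 0.19 in Pkd2-/- cells (adjusted p = 0.0241), and neither call was stable to single libraries. The first was lost without replicate 2 of Wt or Pkd1-/-, Wt replicate 3 or Pkd1-/- replicate 4 (adjusted p of 0.0512 to 0.0776), and the second without Wt replicate 1 or 4 or Pkd2-/- replicate 1 or 3 (0.0597 to 0.0932). Kat8, on the opposite strand, covers 6.59% of its exon bases.

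Of the 14 sodium pump genes 6 were tested, and 3 rose and none fell in each mutant, while 13.6% of all genes rose in Pkd1-/- and 20% in Pkd2-/- cells. Fxyd5, with a mean under 10, is among the 3 in each mutant. Fxyd2 and Fxyd4, modulators of the pump, were listed at 0 and at no more than 3 normalized counts. The list of sodium transporters of other segments, which also holds the potassium channel Kcnj1 and uromodulin (Umod) as segment markers, was mostly undetected. Of its 11 genes 4 were tested, none passed the adjusted p in Pkd1-/- cells, and Slc4a4, Slc4a8 and Umod were lower in Pkd2-/- cells. Umod had 3, 2, 0 and 7 normalized counts in Wt and 0 in all Pkd2-/- libraries. The sodium bicarbonate cotransporter Slc4a4 had 13, 20, 22 and 22 normalized counts in Wt, 14, 18, 8 and 12 in Pkd1-/- and 2, 0, 0 and 0 in Pkd2-/- libraries. Slc4a4 fell in Pkd2-/- cells (adjusted p = 2.93e-07), where its values did not exceed the limit that a count of 0 allows.

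**Figure D5:**
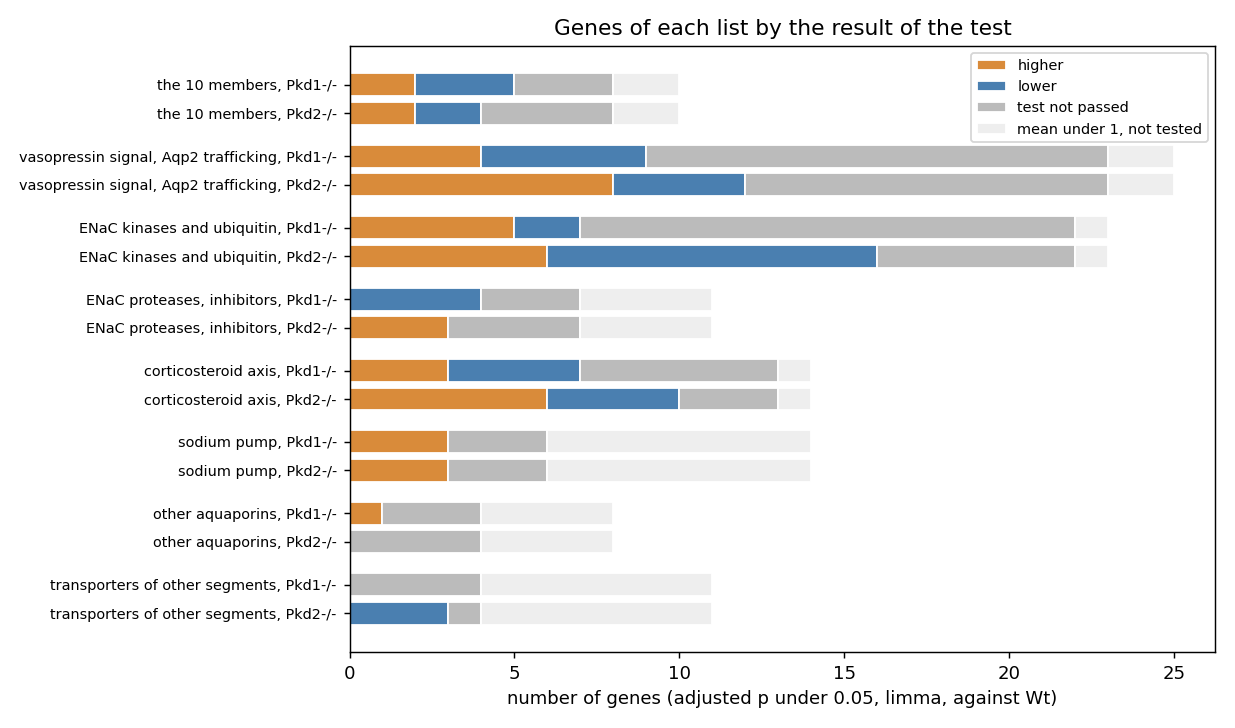
Number of genes (horizontal axis) of the 10 members and of each of the 7 pathway lists that were higher, lower or not past an adjusted p of 0.05 against Wt, or too low to test, in Pkd1-/- and Pkd2-/- cells. Of all genes tested 27.1% passed in Pkd1-/- and 42.3% in Pkd2-/- cells, beside 30 and 45 of the 77 tested pathway genes.

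The genes with the most similar changes were sought for the differentially expressed members, by the distance between their pairs of log2 fold changes against Wt among 10649 genes with a mean of at least 100. Among the nearest to Aqp1 were Pstpip2 (distance 0.029) and C130013H08Rik (0.140). Pstpip2 differed from Wt by 1.30 in Pkd1-/- and 0.24 in Pkd2-/- cells. For Scnn1g they were Krt19 (distance 0.233), Spp1 (0.306) and Adgra2 (0.321). Krt19, a keratin of ductal epithelia, changed by -1.75 in Pkd1-/- and -1.66 in Pkd2-/- cells, and Spp1, which encodes osteopontin, by -1.92 and -1.91.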

How the data were processed

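The deposited table holds 1 score per gene and library, a normalized count: per the labels and the methods of the study, the authors trimmed reads with Trim Galore, aligned them with HISAT2 to GRCm38/mm10, counted them per gene with HTSeq and divided the counts by DESeq2 size factors, and the deposited values are rounded. The strand used in counting is not given in the sources used here. The submitters' processing notes also name FastQC, StringTie and the build mm9.

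The values are not raw counts, so edgeR, which the plan held ready for counts, was not used. The test was limma 3.58.1 in R 4.3.3 (lmFit, eBayes with trend) on log2(value + 1), with all 12 libraries in 1 model, genes with a mean of at least 1, Benjamini-Hochberg adjustment, and the thresholds of the study. Size factors were estimated from the steps between whole-number values. Gene models came from GENCODE M21, which held 47223 of the 47642 identifiers. Limits for a count of 0 cover counting error only. P-values measure the spread between dishes of 1 clone.

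Named were all 10 members, of each pathway list up to 4 differentially expressed genes with a mean of at least 10 and the largest change, Avpr2, Nr3c1, Nr3c2 and Prss8, the targeted genes, and for each differentially expressed member the 3 genes nearest in fold change. Some genes that this rule gives are not reported here. The members and lists were chosen with earlier results of these data known. Alternatives covered the pseudocount, the filter, the samples in the fit, scaling, a replicate block, the fold threshold and leaving out libraries.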

Additional observations from a re-analysis of the deposited data

Results flagged for a closer look

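The members' values were screened for single libraries that stood apart from the other 3 of their genotype, which chance gives in about 1 of 20 groups, and 4 of the 24 groups with any difference between libraries did. In groups with 3 values of 0 any other value stands apart, which holds for both Aqp3 groups. They were the Wt library with 6 normalized counts of Aqp3, the Pkd2-/- library with 2 normalized counts of Aqp3, which is within the limit that a count of 0 allows, the Pkd1-/- library with 7 normalized counts of Scnn1b, and the Pkd1-/- library with 1381 normalized counts of Nedd4l, which was the lowest of its group.

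The 2 mutants also differed from each other, in the direct comparison by limma, in these genes. As log2 fold change of Pkd2-/- against Pkd1-/- cells, Aqp1 differed by -1.10, Hsd11b2 by -1.03 and Slc4a4 by -3.36, all lower in Pkd2-/- cells. Since Slc4a4 was at or near 0 in Pkd2-/- libraries its value depended on the pseudocount and ranged from -4.12 to -1.70 over the alternatives. Gata3 differed by 2.84, Plau by 1.07 and Nr3c2 by 5.99, all higher in Pkd2-/- cells.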

How the results depend on the processing

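Of 954 recomputed log2 fold changes of the members and named genes, 936 kept their direction and whether they were differentially expressed, 10 lost and 1 gained the call, and 7 reversed. By adjusted p alone, Aqp1 in Pkd2-/- cells, Scnn1g, Aqp3 and Adcy3 between the mutants, and Prss8 in each mutant crossed the threshold in some alternatives. The reversed values were all of changes that had not passed the test. Leaving out replicate 4 of every genotype, an alternative chosen after seeing the data, gave Scnn1b -0.14 in Pkd1-/- and -0.031 in Pkd2-/- cells against Wt, and 0.11 between the mutants. With single libraries left out, Scnn1b between the mutants ranged from -0.34 to 0.43, positive without Pkd1-/- replicate 4 (0.36) or Pkd2-/- replicate 3 (0.43). Aqp3 in Pkd2-/- cells ranged from -0.70 to 0.40 (without Wt replicate 3), and Sgk1 from -0.29 to 0.0098 (without Wt replicate 4). Without the fold threshold 5, 4 and 6 members passed (Pkd1-/-, Pkd2-/- and Pkd2-/- against Pkd1-/-), and 30, 45 and 46 pathway genes. With a mean of at least 10 the differentially expressed pathway genes were 3, 3 and 7, fewer genes being tested. In Pkd2-/- cells 6 pathway genes were called at a pseudocount of 5 and 6 without replicate 4 of every genotype. Between the mutants a pseudocount of 5 left 1 member, since Hsd11b2 came to -0.98, and leaving out single libraries gave 1 to 2 members. The cause was not tested.

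The replicate numbers did not pair the libraries throughout. Over the 12 same-numbered pairs the correlation of deviations was -0.07 to 0.20, 2 of them over 0.1. Both were pairs of replicate 4, at 0.20 for Wt with Pkd2-/- and 0.17 for Pkd1-/- with Pkd2-/- cells. For replicate 4 of Wt with Pkd1-/- it was 0.09. With the replicate block 2, 1 and 2 members remained differentially expressed, with Scnn1g at -1.62 and -1.86. The block moved the adjusted p of limma both ways. For Aqp1 in Pkd2-/- cells it was 0.0514 with the block and 0.0363 without it. For Sgk1 in Pkd1-/- cells it was 1.1e-05 with the block and 0.00314 without it. Depth limits Aqp2, Aqp3, Aqp4 and Scnn1b, whose values lie at or near the limit that a count of 0 allows.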

Other observations

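Further genes of the pathway lists were chosen for mention after their values were seen. Myo5b, the motor of recycling endosomes, had mean normalized counts of 627.5 in Wt, 421 in Pkd1-/- and 1241 in Pkd2-/- cells, a log2 fold change of -0.57 (adjusted p = 8.79e-06, limma) and of 0.98 (adjusted p = 3.49e-09). Nfat5, the osmosensitive transcription factor of the renal medulla, went the same ways, with means of 10202.5, 6578 and 15717 and log2 fold changes of -0.63 (adjusted p = 0.00239) and 0.62 (adjusted p = 0.00153). Tsc22d3, the glucocorticoid-induced gene GILZ, fell by 0.46 in Pkd1-/- (adjusted p = 5.1e-05) and by 0.38 in Pkd2-/- cells (adjusted p = 0.000224), while Fkbp5, another glucocorticoid target, rose by 0.35 (adjusted p = 1.34e-05) and 0.16 (adjusted p = 0.0119). Per1 rose by 0.28 in Pkd2-/- cells (adjusted p = 0.00566) and had a log2 fold change of -0.09 in Pkd1-/- cells (adjusted p = 0.475). Spint1, an inhibitor of membrane serine proteases, rose by 0.64 in Pkd2-/- cells (adjusted p = 4.95e-09).

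Stk39, the kinase SPAK of the WNK pathway, had 22, 16, 15 and 13 normalized counts in Wt, 2, 0, 0 and 1 in Pkd1-/- and 0, 0, 1 and 0 in Pkd2-/- libraries. Every mutant library was at or under the limit that a count of 0 allows, and Stk39 passed the test in each mutant (adjusted p = 1.53e-05 and 2.04e-06). Its partner kinase Oxsr1 had means of 1913, 1914.5 and 1689 in the 3 genotypes. Serum-grown dishes without named hormone give no measure of how these genes respond to vasopressin or aldosterone.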
